A study of Homo sapiens with 6 samples.

Results

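Wnt ligands, their receptors and the inhibitors around them were read from an RNA sequencing experiment on DU145, an established human prostate carcinoma line in which E6AP was depleted. UBE3A encodes E6AP, a ubiquitin ligase of the HECT class, and the comparison asks which transcripts depend on it. The members were the rows of the deposited count table whose symbol names a WNT, FZD, DKK, SFRP, LGR, AXIN, NKD or ROR gene, LRP5, LRP6, RYK, RNF43, ZNRF3, APC, or a TCF/LEF gene (TCF7, TCF7L1, TCF7L2, LEF1). This gave 53 of the 33835 gene rows. Cells of the shE6AP group (3 libraries) carried a short hairpin against E6AP and cells of the wobble group (3 libraries) a hairpin labelled as its control. All cells of both groups received doxycycline at 0.2 µg/ml for 2.5 days, so the drug itself does not differ between them. The labels give neither the wobble sequence nor the make-up of the lines (pools or clones), and do not state that libraries stem from different cultures. P-values therefore cover only library-to-library spread, which may be technical.

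Wnt proteins are secreted lipid-modified ligands that bind Frizzled receptors. Together with the coreceptors LRP5 and LRP6 they stop the complex of AXIN, APC and GSK3 from marking beta-catenin for destruction, and beta-catenin then acts with TCF/LEF proteins on target genes. Other Wnt signals pass through ROR1, ROR2 or RYK without beta-catenin. DKK and SFRP proteins block the pathway outside the cell, R-spondin receptors of the LGR family protect Frizzleds from the membrane ligases RNF43 and ZNRF3, and AXIN2 and the NKD proteins are feedback inhibitors. In prostate epithelium the pathway is known for its part in development and in tumours.

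In the shE6AP libraries most of the abundant Wnt ligands fell, with WNT7B and WNT5A at 65.9% and 64.1% of their wobble level. The ROR1 and ROR2 receptors, NKD1, NKD2 and AXIN2 among feedback inhibitors, the secreted inhibitor SFRP1 and the nuclear factor LEF1 rose. Feedback genes did not rise as a class. NOTUM and APCDD1, pathway genes also described as induced by beta-catenin, fell (log2 fold changes -1.08 and -0.81). The membrane ligase ZNRF3 rose by 0.19 on the log2 scale and RNF43 did not pass. LEF1 had only 10 to 36 reads per library and ROR2 20 to 61, and AXIN2 was not called against a fold of 1.2. DKK1, the most abundant secreted inhibitor, fell (log2 fold change -0.18), and the secreted inhibitors summed to 0.977 of their wobble level. Frizzled genes split, FZD1 rising while FZD5, FZD7 and FZD9 fell, and the most abundant of them, FZD6, differed by a log2 fold change of -0.019 that did not pass the test. Of the 53 members, 42 had enough reads to be tested, and 29 of these passed an adjusted p under 0.05, 13 higher and 16 lower in shE6AP. Over all 19433 genes tested the background was high: 59.0% passed (28.6% higher and 30.4% lower), and 65.8% of those with a mean of at least 1 CPM in either group, against 27 of the 38 members at that level (71.1%). The share of members called is therefore near that of other genes, and the results below concern which members moved and by how much. Called members with a log2 fold change of 0.5 or more in size numbered 18 of 42 (42.9%), 9 higher and 9 lower, against 22.2% of all genes tested (10.3% higher and 11.8% lower). At least doubled or halved were 7 members (16.7%), against 6.74% of all genes tested. All of these 7 but NKD2 were low, with group means from 0.344 CPM (WNT11 in shE6AP) to 4.03 CPM (NKD1 in shE6AP). The shares by size of change were not compared at matched level. The median log2 fold change of the tested members was 0.0099, and that of all genes tested was 0.0084.

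Levels are CPM (a gene's reads over the TMM-adjusted size of its library, on a common scale), in the order of libraries 1, 2 and 3. Each log2 fold change sets shE6AP over wobble and comes, with its standard error (SE), from edgeR's quasi-likelihood test. The libraries held 21558506 to 30488217 gene reads. UBE3A, the target of the hairpin, stood at 14.2, 14.5 and 15.0 CPM in shE6AP and at 54.1, 55.4 and 57.9 CPM in wobble, which leaves 26.1% of the wobble level. Epithelial markers (KRT7, KRT8, KRT18, KRT19, EPCAM and CDH1) were all present, summing to between 2161 and 2214 CPM in shE6AP and between 2792 and 2928 CPM in wobble. KRT7 carried the lower sum (log2 fold change -0.77), KRT19 and CDH1 fell less (-0.13 and -0.16), and KRT8, KRT18 and EPCAM rose (0.22, 0.33 and 1.04). Markers of other cell types were low: endothelial genes summed to at most 0.834 CPM in shE6AP and 0.590 CPM in wobble, the 4 blood genes with a row to between 5.29 and 6.34 CPM in shE6AP and between 3.36 and 4.43 CPM in wobble, and the 6 fibroblast genes to between 17.8 and 19.3 CPM in shE6AP and between 12.7 and 15.6 CPM in wobble, nearly all of it COL1A1, with LUM at 0 in every wobble library. These sums move with the groups, and their part in the results below was not tested. In bulk RNA, fewer cells expressing a gene and less RNA per cell cannot be told apart.

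The 250 bases before the annotated start are printed for some members. The starts used in these cells were not measured. ROR2 and NKD2 were taken from the members that more than doubled, which also include LEF1, LGR6 and NKD1. FZD9 and FZD5 are the Frizzled genes with at least 1 CPM that fell furthest, and DKK1 is the most abundant member per kilobase. The sequences are RefSeq's on GRCh38.p14, another build than the hg19 of the counts, and run 5′ to 3′ on the strand of the gene; capitals mark the TCF/LEF core letters searched for. ROR2 lies on the minus strand at chr9:91950229-91950478, NKD2 on the plus strand at chr5:1008552-1008801, FZD9 on the plus strand at chr7:73433528-73433777, FZD5 on the minus strand at chr2:207769907-207770156 and DKK1 on the plus strand at chr10:52314031-52314280.
ROR2: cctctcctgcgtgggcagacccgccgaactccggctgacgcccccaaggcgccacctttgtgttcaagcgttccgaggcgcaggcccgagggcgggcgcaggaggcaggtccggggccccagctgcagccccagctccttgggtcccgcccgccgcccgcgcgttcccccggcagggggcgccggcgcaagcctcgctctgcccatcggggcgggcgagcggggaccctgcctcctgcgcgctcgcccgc
NKD2: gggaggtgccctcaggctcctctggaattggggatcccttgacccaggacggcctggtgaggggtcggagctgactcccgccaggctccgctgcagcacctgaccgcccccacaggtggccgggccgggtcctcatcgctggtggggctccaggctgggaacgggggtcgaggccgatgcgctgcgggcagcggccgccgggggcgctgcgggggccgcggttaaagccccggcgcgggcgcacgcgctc
FZD9: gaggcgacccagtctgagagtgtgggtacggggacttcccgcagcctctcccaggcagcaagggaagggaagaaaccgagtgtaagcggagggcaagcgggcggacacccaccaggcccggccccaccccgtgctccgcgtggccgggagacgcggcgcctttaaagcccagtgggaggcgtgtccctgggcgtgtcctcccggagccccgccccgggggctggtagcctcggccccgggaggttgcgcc
FZD5: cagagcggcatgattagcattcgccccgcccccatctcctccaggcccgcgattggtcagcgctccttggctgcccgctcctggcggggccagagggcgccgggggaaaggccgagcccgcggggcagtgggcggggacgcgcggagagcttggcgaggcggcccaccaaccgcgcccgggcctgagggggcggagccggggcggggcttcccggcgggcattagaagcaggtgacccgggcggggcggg
DKK1: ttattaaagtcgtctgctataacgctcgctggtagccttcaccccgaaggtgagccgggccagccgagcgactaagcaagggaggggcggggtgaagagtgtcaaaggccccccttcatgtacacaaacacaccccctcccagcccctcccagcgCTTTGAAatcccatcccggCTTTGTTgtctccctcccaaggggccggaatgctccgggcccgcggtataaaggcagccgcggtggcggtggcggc
Letters of the core that TCF/LEF proteins bind were searched on both strands of RefSeq promoters, reaching from 250 bases before to 50 bases after a start. Of all promoters, 4.43% held CTTTGAA, 2.62% held CTTTGAT, 5.20% held CTTTGTT and 2.77% held CTTTGTA. All share CTTTG, and matches on opposite strands can overlap only in their last letters. RefSeq promoters were found for 37 of the 53 members, 47 promoters in all, and 4 of the 47 (8.51%) held a match, against 13.8% of all 35116 promoters. DKK1 had 2 matches, and TCF7, TCF7L2 and WNT3 had 1 each. ROR2, NKD2, FZD9 and FZD5 had none, which says only that these letters are not in this window. The printed stretches are rich in G and C, between 62.8% for DKK1 and 78.0% for ROR2.

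**Figure D1:**
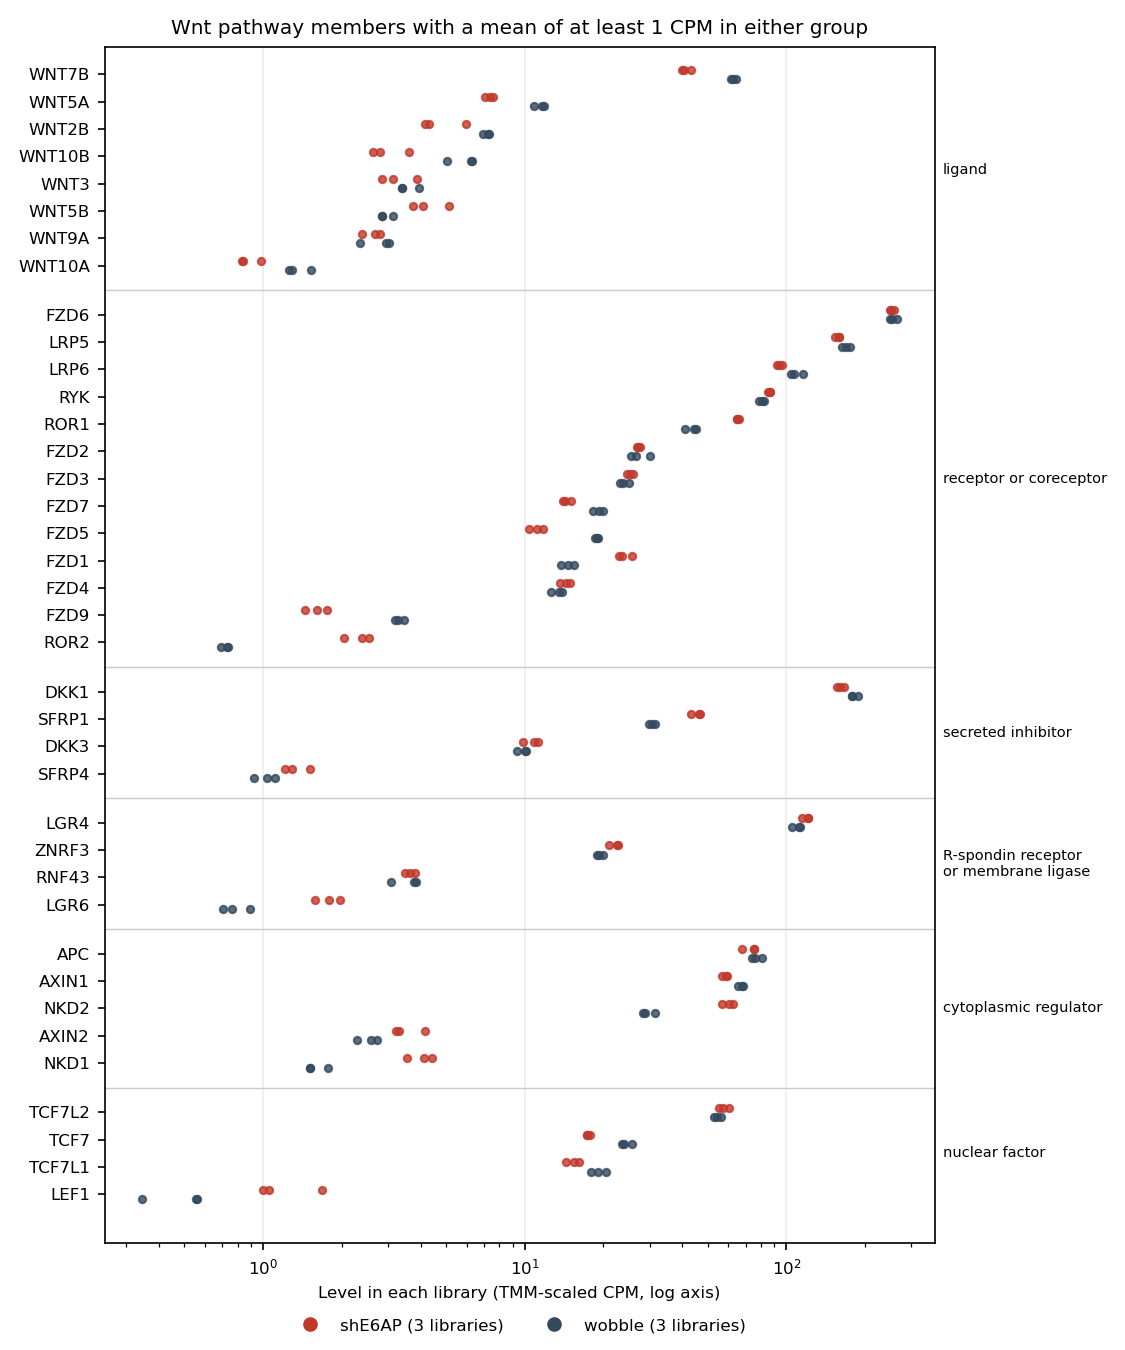
Level in CPM (horizontal log axis) of each member with a mean of at least 1 CPM in either group, by role. Each point is 1 library, shE6AP in red above wobble in blue-grey; WNT7B at 40.0 to 43.4 CPM in shE6AP lies apart from its 61.4 to 64.2 CPM in wobble, whereas the FZD6 points of both groups overlap.

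Ligand transcripts were fewer in cells with the E6AP hairpin. Summed over the 18 WNT rows, the level was 68.9, 70.4 and 73.3 CPM in shE6AP and 101.8, 100.5 and 100.7 CPM in wobble. All 3 shE6AP sums lay below all 3 wobble sums, at a ratio of 0.702. Of the 11 ligands tested, 6 fell, 1 rose and 4 did not pass (63.6% called, against 59.0% of all genes tested). WNT7B, an epithelial ligand that can act through beta-catenin, made up most of this signal. It stood at 40.8, 40.0 and 43.4 CPM in shE6AP and at 64.2, 62.7 and 61.4 CPM in wobble. The groups did not overlap, as was the case for 71.4% of the tested members and 62.6% of all genes tested. Its log2 fold change was -0.60 (SE 0.042), with an edgeR adjusted p of 1.92e-16.

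WNT5A, the best known ligand of signalling without beta-catenin, was at 7.05, 7.40 and 7.55 CPM in shE6AP and at 10.9, 11.6 and 11.8 CPM in wobble. The lowest wobble library was well above the highest shE6AP library, and the log2 fold change was -0.64 (SE 0.081, edgeR adjusted p 3.75e-09). Its close paralog WNT5B went the other way, with 4.10, 5.15 and 3.75 CPM in shE6AP and 2.84, 2.84 and 3.14 CPM in wobble. WNT5B was the one ligand that rose, and its log2 fold change was 0.55 (SE 0.13, edgeR adjusted p 3.14e-04). Its shE6AP libraries were more scattered than the wobble ones.

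WNT10B, a ligand known for holding back fat cell formation through beta-catenin, had the steepest fall among ligands with at least 1 CPM. Its levels were 3.61, 2.81 and 2.63 CPM in shE6AP and 6.24, 5.05 and 6.27 CPM in wobble, a log2 fold change of -0.94 (SE 0.125, edgeR adjusted p 1.33e-08). WNT2B, which also signals through beta-catenin, was at 4.31, 4.17 and 5.96 CPM in shE6AP and at 6.94, 7.34 and 7.27 CPM in wobble. shE6AP library 3 came closest to the wobble range, and the log2 fold change was -0.58 (SE 0.108, edgeR adjusted p 1.05e-05). In the GENCODE 29 annotation 20.9% of the WNT2B exon length overlaps exons of ST7L on the opposite strand. The library kit does not mark strand, so reads in the shared stretch cannot be told apart. ST7L has its own row, and the strand setting of the count is not given. Whether such reads were counted for WNT2B or dropped as ambiguous is therefore not known.

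WNT10A and WNT11 fell at low read numbers. WNT10A, known from tooth and hair development, was at 0.842, 0.984 and 0.834 CPM in shE6AP and at 1.25, 1.52 and 1.29 CPM in wobble. Its log2 fold change of -0.62 (SE 0.216, edgeR adjusted p 0.0122) rested on wobble library 2, without which the change was -0.53 and the adjusted p 0.0604, and it was not called by DESeq2 (adjusted p 0.085). WNT11, a ligand of cell movement in the embryo, had 8, 8 and 9 reads in shE6AP and 22, 27 and 15 reads in wobble, a log2 fold change of -1.12 (SE 0.319, edgeR adjusted p 0.00242). WNT3, WNT9A, WNT8B and WNT9B did not pass, with log2 fold changes of -0.14, -0.091, 0.12 and 0.24. Their 95% intervals were -0.41 to 0.13 for WNT3, -0.38 to 0.20 for WNT9A, -0.44 to 0.67 for WNT8B and -0.26 to 0.74 for WNT9B, and changes within these intervals cannot be told from none here. WNT3 was at 2.84, 3.89 and 3.13 CPM in shE6AP and at 3.40, 3.39 and 3.95 CPM in wobble (edgeR adjusted p 0.38), with overlapping groups. WNT9A was at 2.38, 2.67 and 2.79 CPM in shE6AP and at 2.94, 2.35 and 3.03 CPM in wobble (edgeR adjusted p 0.616), again with overlap.

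WNT1, WNT2, WNT3A, WNT4, WNT6, WNT7A and WNT16 had too few reads to be tested, at most 16 in any library. WNT7A had 6, 5 and 4 reads in shE6AP and 1, 0 and 1 reads in wobble, and WNT4 had 7, 16 and 15 reads in shE6AP and 10, 10 and 9 in wobble. Levels between genes were compared per kilobase of exon (CPM per kb, exon lengths from GENCODE 29). On that scale WNT7B took 51.6 ± 2.07% of the summed ligand level in shE6AP and 56.3 ± 0.919% in wobble (SD, n = 3 each). WNT5B took 10.6 ± 1.72% in shE6AP and 5.17 ± 0.320% in wobble. In shE6AP its share, 9.09% to 12.5% by library, overlapped that of WNT10B, 7.21% to 10.2%, while in wobble it was below WNT10B (11.7 ± 1.29%) and WNT5A (8.15 ± 0.442%).

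**Figure D2:**
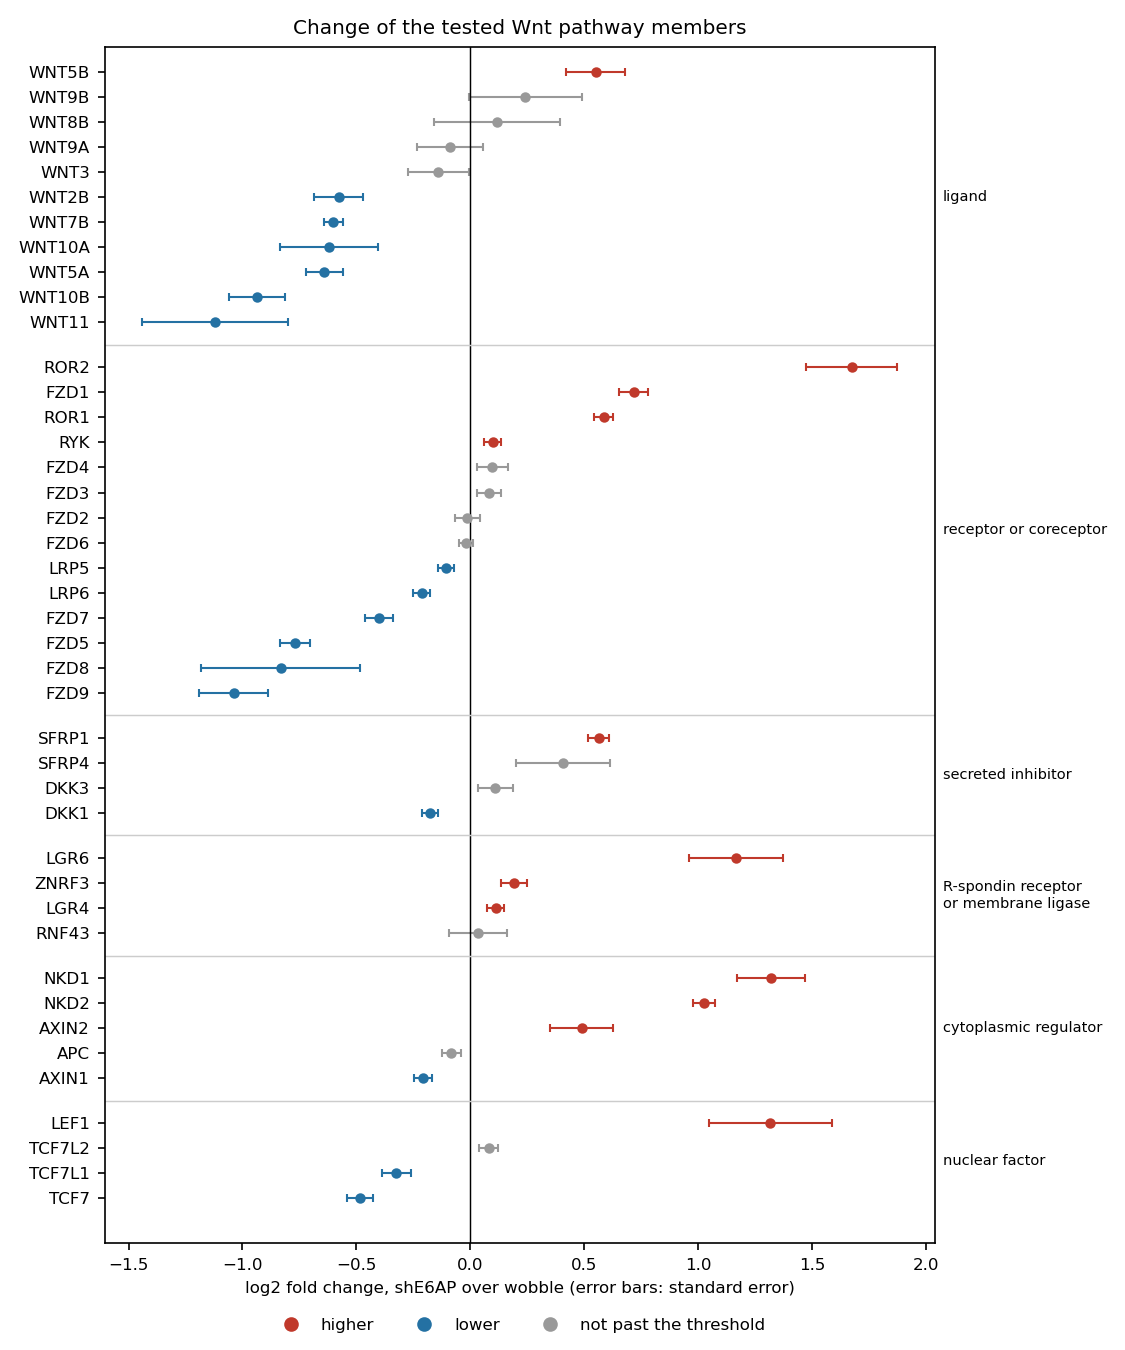
Horizontal axis: log2 fold change, shE6AP over wobble, with its standard error, for the 42 tested members by role. Red members rose, blue members fell and grey members did not pass; ROR2 at 1.67 and WNT11 at -1.12 are the ends of the range, and the tested WNT genes other than WNT5B, WNT8B and WNT9B lie left of 0.

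Single receptors moved both ways while their sum differed little. The 14 receptor and coreceptor rows summed to 771.4, 776.0 and 777.0 CPM in shE6AP and to 770.6, 771.8 and 795.1 CPM in wobble. The 2 groups overlap in this sum, with a ratio of 0.994 that became 1.014 with upper-quartile scaling. All 14 were tested: 4 rose, 6 fell and 4 did not pass (71.4% called, against 59.0% of all genes tested). FZD6, which often restrains beta-catenin signalling, held 71.0 ± 0.405% of the Frizzled level per kb in shE6AP and 70.0 ± 1.07% in wobble (SD, n = 3 each). FZD6 was at 256.9, 247.8 and 251.2 CPM in shE6AP and at 249.3, 252.3 and 264.6 CPM in wobble. Its libraries were interleaved, and the 95% interval of its log2 fold change ran from -0.085 to 0.047.

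FZD1, a Frizzled of beta-catenin signalling, was at 22.8, 23.6 and 25.7 CPM in shE6AP and at 14.7, 13.7 and 15.5 CPM in wobble. It was the one Frizzled that rose, and its log2 fold change was 0.72 (SE 0.062, edgeR adjusted p 1.51e-13). FZD5, best known from gut and eye, was at 11.2, 11.7 and 10.4 CPM in shE6AP and at 18.6, 18.96 and 19.1 CPM in wobble. FZD5 fell by 0.77 on the log2 scale (SE 0.067, edgeR adjusted p 1.55e-13), and FZD7, a Frizzled of stem cells, fell by 0.40 (SE 0.063, edgeR adjusted p 4.73e-07). FZD9 was at 1.61, 1.45 and 1.75 CPM in shE6AP and at 3.47, 3.18 and 3.28 CPM in wobble. It kept 48.7% of its wobble level, a log2 fold change of -1.04 (SE 0.152, edgeR adjusted p 1.04e-07).

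FZD8 had 9, 5 and 7 reads in shE6AP and 16, 15 and 13 reads in wobble. Its log2 fold change of -0.83 (SE 0.35, edgeR adjusted p 0.0406) was not called without any 1 of the 6 libraries (adjusted p 0.053 to 0.116) by DESeq2 (adjusted p 0.174) or with no low-count filter (adjusted p 0.0644). FZD7 was at 14.1, 14.3 and 15.0 CPM in shE6AP and at 18.2, 19.2 and 19.9 CPM in wobble, without overlap. FZD2, FZD3 and FZD4, whose groups overlapped, did not pass, with 95% intervals of the log2 fold change of -0.13 to 0.097, -0.025 to 0.19 and -0.041 to 0.23. FZD2 was at 27.6, 26.9 and 27.0 CPM in shE6AP and at 30.1, 25.6 and 26.6 CPM in wobble (edgeR adjusted p 0.847). FZD3 was at 26.0, 24.7 and 25.1 CPM in shE6AP and at 23.8, 23.1 and 24.9 CPM in wobble (edgeR adjusted p 0.185). For FZD4, at 13.6, 14.8 and 14.4 CPM in shE6AP and at 12.6, 13.5 and 13.9 CPM in wobble (edgeR adjusted p 0.228), 17% of the exon length overlaps PRSS23 on the opposite strand in GENCODE 29.

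The ROR receptors, kinase-like proteins through which WNT5A signals, both rose. ROR1 was at 64.5, 66.0 and 65.0 CPM in shE6AP and at 41.0, 44.3 and 45.0 CPM in wobble. The shE6AP libraries were tightly grouped above all wobble libraries, with a log2 fold change of 0.59 (SE 0.042, edgeR adjusted p 3.73e-16). ROR2 was at 2.03, 2.39 and 2.54 CPM in shE6AP and at 0.694, 0.727 and 0.738 CPM in wobble. Reads were few, at 58, 51 and 61 in shE6AP and 21, 21 and 20 in wobble. Its rise of 3.19-fold was the largest among the tested members, a log2 fold change of 1.67 (SE 0.199, edgeR adjusted p 8.91e-10). Per kb, ROR1 stayed far above ROR2, at 9.89 against 0.479 CPM per kb in shE6AP and 6.59 against 0.148 CPM per kb in wobble.

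RYK, a further kinase-like Wnt receptor, was at 85.3, 86.4 and 86.4 CPM in shE6AP and at 78.4, 80.9 and 81.8 CPM in wobble. It had a small rise of 0.098 on the log2 scale (SE 0.037, edgeR adjusted p 0.019). That call was lost without shE6AP library 2 or 3 or wobble library 1 or 2 (adjusted p 0.0525 to 0.0912), and with no low-count filter (adjusted p 0.14). The coreceptors LRP5 and LRP6 fell slightly, with log2 fold changes of -0.11 (SE 0.034, edgeR adjusted p 0.00626) and -0.21 (SE 0.038, edgeR adjusted p 5.53e-06). LRP5 was at 153.4, 159.4 and 158.5 CPM in shE6AP and at 174.6, 169.4 and 163.4 CPM in wobble, where the groups lay close but did not overlap. LRP6 was at 91.9, 96.3 and 93.8 CPM in shE6AP and at 104.5, 106.5 and 116.0 CPM in wobble, without overlap.

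**Figure D3:**
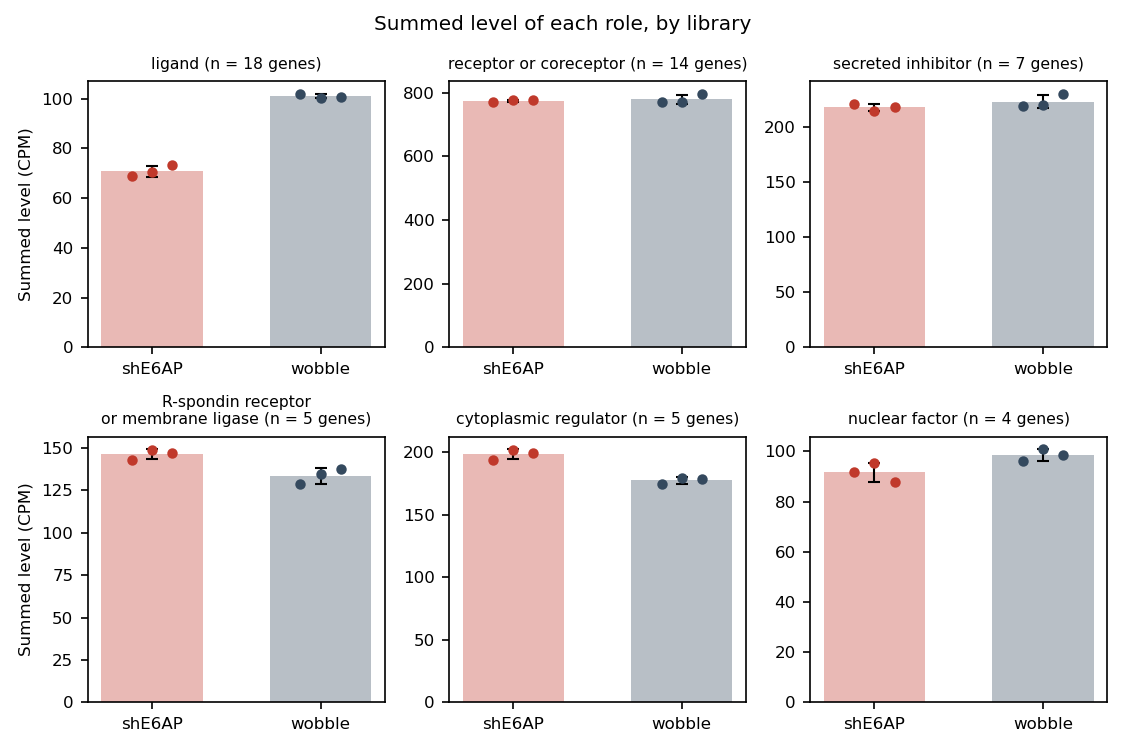
Summed level in CPM (vertical axis, from 0) of the members of each role in shE6AP (left bar) and wobble (right bar); points are the 3 libraries, bars the mean and error bars the SD. The ligand sum was 70.9 CPM in shE6AP and 101.0 CPM in wobble, while the receptor sums were 774.8 CPM in shE6AP and 779.2 CPM in wobble.

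Of 7 secreted inhibitors 4 were tested: 1 rose, 1 fell and 2 did not pass (50% called, against 59.0% of all genes tested). The 7 rows summed to 221.0, 214.9 and 218.5 CPM in shE6AP and to 219.4, 220.2 and 230.2 CPM in wobble. The groups overlap in this sum, at a ratio of 0.977. Summed per kb, the ratio was 0.926, without overlap. DKK1 held most of that per-kb sum, 86.9 ± 0.635% in shE6AP and 91.0 ± 0.225% in wobble (SD, n = 3 each). SFRP1, which binds Wnt proteins outside the cell, rose and DKK1, which blocks LRP5 and LRP6, fell. SFRP1 was at 43.4, 46.7 and 46.4 CPM in shE6AP and at 29.9, 30.7 and 31.6 CPM in wobble. The groups were clearly apart, with a log2 fold change of 0.56 (SE 0.046, edgeR adjusted p 2.45e-14). DKK1 was at 165.3, 155.8 and 160.9 CPM in shE6AP and at 178.5, 178.4 and 188.2 CPM in wobble, a log2 fold change of -0.18 (SE 0.034, edgeR adjusted p 2.14e-05). DKK1 was the most abundant member per kb in both groups, at 89.7 CPM per kb in shE6AP and 101 CPM per kb in wobble. DKK3, a divergent member of its family, and SFRP4 did not pass, with log2 fold changes of 0.11 (95% interval -0.047 to 0.27) and 0.41 (95% interval -0.013 to 0.83). DKK3 was at 10.8, 11.2 and 9.84 CPM in shE6AP and at 10.1, 10.0 and 9.34 CPM in wobble (edgeR adjusted p 0.229), with overlap. SFRP4 was at 1.51, 1.22 and 1.29 CPM in shE6AP and at 0.92, 1.11 and 1.03 CPM in wobble (edgeR adjusted p 0.0903), without overlap. DKK2, DKK4 and SFRP5 had at most 1 read in any library and were not tested.

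Of the 5 R-spondin receptors and membrane ligases 4 were tested: 3 rose, 0 fell and 1 did not pass (75% called, against 59.0% of all genes tested). LGR6, an R-spondin receptor of skin stem cells, changed most. It was at 1.79, 1.97 and 1.58 CPM in shE6AP and at 0.892, 0.761 and 0.701 CPM in wobble, a log2 fold change of 1.17 (SE 0.207, edgeR adjusted p 4.67e-06). LGR4, the abundant receptor of this family here, was at 114.9, 120.4 and 120.5 CPM in shE6AP and at 104.6, 111.6 and 113.1 CPM in wobble. Its log2 fold change of 0.11 (SE 0.037, edgeR adjusted p 0.00825) lost its call without wobble library 1 (adjusted p 0.0943) or shE6AP library 3 (adjusted p 0.0516), and with no low-count filter (adjusted p 0.0503). The ligase ZNRF3 was at 22.7, 22.6 and 21.0 CPM in shE6AP and at 19.3, 18.9 and 19.9 CPM in wobble, a log2 fold change of 0.19 (SE 0.057, edgeR adjusted p 0.00344). RNF43 was at 3.65, 3.79 and 3.503 CPM in shE6AP and at 3.76, 3.08 and 3.84 CPM in wobble with overlap and did not pass (edgeR adjusted p 0.838, 95% interval of the log2 fold change -0.22 to 0.29). In GENCODE 29, RNF43 shares 58.5% of its exon length with a locus on the same strand that has no row in the table. LGR5, the R-spondin receptor of gut stem cells, had at most 2 reads in any library.

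Of the 5 cytoplasmic members 3 rose, 1 fell and 1 did not pass (80% called, against 59.0% of all genes tested). The 3 that rose were NKD1, NKD2 and AXIN2, the feedback inhibitors of this role. NKD2, which binds Dishevelled, was at 62.7, 60.4 and 56.9 CPM in shE6AP and at 28.4, 31.4 and 28.7 CPM in wobble. Every shE6AP library was far above the wobble range, and the log2 fold change was 1.03 (SE 0.046, edgeR adjusted p 7.48e-23). NKD1, its relative, was at 3.54, 4.12 and 4.42 CPM in shE6AP and at 1.52, 1.76 and 1.51 CPM in wobble, a log2 fold change of 1.32 (SE 0.148, edgeR adjusted p 1.94e-10). Per kb, with exon lengths of 2.33 kb for NKD2 and 17.1 kb for NKD1 in GENCODE 29, NKD2 was above NKD1, at 25.7 against 0.235 CPM per kb in shE6AP and 12.6 against 0.0935 CPM per kb in wobble.

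AXIN2, a widely used readout of beta-catenin activity, was at 3.30, 3.23 and 4.17 CPM in shE6AP and at 2.58, 2.73 and 2.29 CPM in wobble. It rose, with a log2 fold change of 0.49 (SE 0.139, edgeR adjusted p 0.00232) and was not called against a fold of 1.2 (adjusted p 0.0543). AXIN1, the scaffold present in all cells, was at 56.7, 59.2 and 58.6 CPM in shE6AP and at 67.6, 68.1 and 65.5 CPM in wobble, a log2 fold change of -0.21 (SE 0.039, edgeR adjusted p 1.36e-05). APC, the tumour suppressor of the destruction complex, was at 67.9, 74.8 and 75.0 CPM in shE6AP and at 74.2, 75.6 and 80.6 CPM in wobble, with overlap. It did not pass (log2 fold change -0.084, SE 0.041, edgeR adjusted p 0.0792). It was called without wobble library 1 (adjusted p 0.0192), without shE6AP library 2 (adjusted p 0.0396) and with no low-count filter (adjusted p 0.0264), whereas without shE6AP library 1 its log2 fold change was -0.037 (adjusted p 0.521).

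Of the 4 TCF/LEF genes 1 rose, 2 fell and 1 did not pass (75% called, against 59.0% of all genes tested). LEF1, the factor often induced by the pathway itself, had 30, 36 and 24 reads in shE6AP and 17, 10 and 15 reads in wobble. This corresponds to 1.05, 1.69 and 1.00 CPM in shE6AP and 0.561, 0.346 and 0.554 CPM in wobble, a log2 fold change of 1.32 (SE 0.269, edgeR adjusted p 4.47e-05). TCF7 was at 17.3, 17.8 and 17.3 CPM in shE6AP and at 23.6, 25.6 and 24.0 CPM in wobble, a log2 fold change of -0.49 (SE 0.057, edgeR adjusted p 7.40e-10). TCF7L1, mostly a repressor, was at 16.2, 15.4 and 14.3 CPM in shE6AP and at 19.1, 20.5 and 17.97 CPM in wobble, a log2 fold change of -0.32 (SE 0.065, edgeR adjusted p 3.08e-05). TCF7L2, the main factor of intestinal epithelium, was at 57.3, 60.5 and 55.1 CPM in shE6AP and at 53.0, 54.3 and 55.98 CPM in wobble, with overlap. It did not pass (log2 fold change 0.081, SE 0.042, edgeR adjusted p 0.0922). It was called with upper-quartile scaling (adjusted p 0.0225) and without shE6AP library 3 (adjusted p 0.0454). Per kb, TCF7L2 held 57.9 ± 0.657% of the TCF/LEF level in shE6AP and 50.2 ± 1.58% in wobble, and LEF1 held 1.28 ± 0.347% in shE6AP and 0.465 ± 0.126% in wobble (SD, n = 3 each). TCF7 held 18.4 ± 0.560% in shE6AP and 23.6 ± 0.446% in wobble. Among the members described above, GENCODE 29 also places exons of loci without a row in the table over 28.4% of AXIN2 on the same strand, and over 11.8% of DKK1, 10.6% of WNT11, 6.93% of TCF7L2 and 6.65% of LEF1 on the opposite strand, so their reads may include some of these loci.

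**Figure D4:**
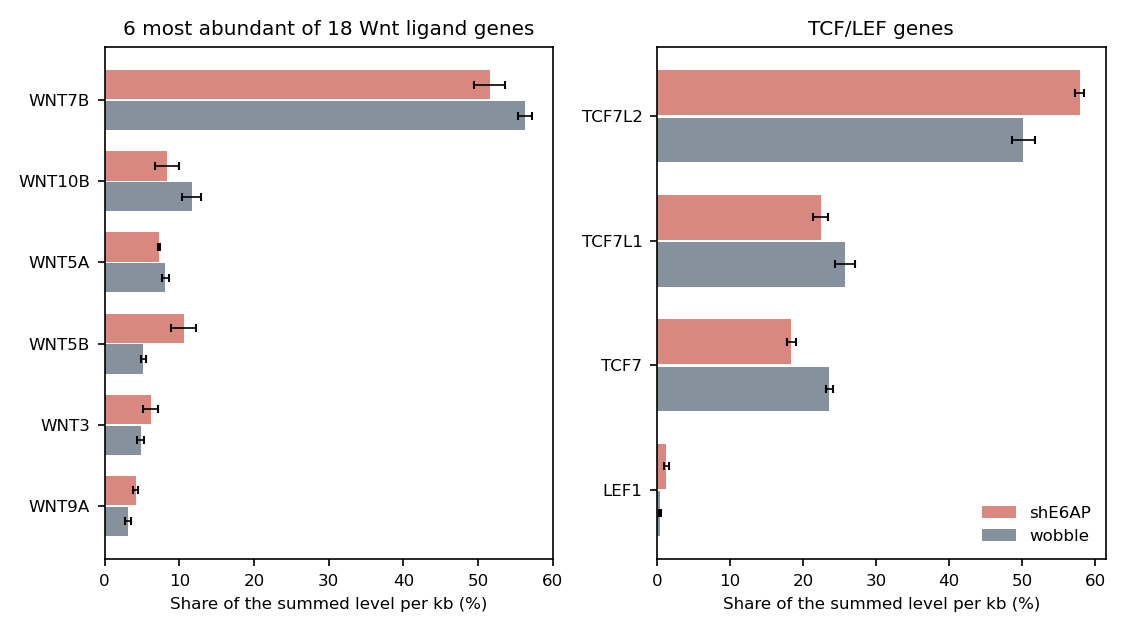
Share of the summed level per kb (horizontal axis, %) held by the 6 most abundant ligand genes (left) and by each TCF/LEF gene (right); bars are means and error bars the SD over 3 libraries, shE6AP above wobble. WNT5B took 10.6% in shE6AP and 5.17% in wobble, and TCF7L2 57.9% in shE6AP and 50.2% in wobble.

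Further genes of the pathway were taken from a list of 70, of which 68 had a row and 63 were tested. Of these 26 rose, 28 fell and 9 did not pass, with a median log2 fold change of -0.021. The share called was 85.7%, against 59.0% of all genes tested and 65.8% of those with at least 1 CPM, the level of 59 of the 68 rows; the list was chosen with earlier results known. By smallest p, the rises were led by C2orf89, the older symbol of TRABD2A, a membrane protease that inactivates Wnt proteins, at 60.0, 60.1 and 58.9 CPM in shE6AP and 27.8, 29.4 and 27.97 CPM in wobble (log2 fold change 1.07, SE 0.044). Next came PTK7, a pseudokinase of planar polarity (0.82, SE 0.045), BCL9L, a beta-catenin cofactor (0.61, SE 0.034), and GSK3B, a kinase of the destruction complex (0.52, SE 0.036). The falls were led by SENP2, a SUMO protease (log2 fold change -0.94, SE 0.038), FBXW11, which recognises phosphorylated beta-catenin (-0.72, SE 0.038), CTNNB1, which encodes beta-catenin (-0.58, SE 0.031), and TNIK, a kinase that acts with TCF7L2 (-0.69, SE 0.047). CTNNB1 was at 279.8, 273.1 and 277.5 CPM in shE6AP and at 418.1, 410.3 and 410.7 CPM in wobble, without overlap. Over these 8 genes the edgeR adjusted p ran from 1.45e-24 for C2orf89 to 1.77e-16 for GSK3B.

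Genes that act on Wnt proteins, and the R-spondins, were singled out after their values were seen. PORCN, which attaches the lipid, was at 8.59, 7.35 and 7.17 CPM in shE6AP and at 11.2, 10.9 and 11.2 CPM in wobble (log2 fold change -0.52, SE 0.082, edgeR adjusted p 6.50e-07). WLS, which carries Wnt proteins to the surface, was at 51.7, 52.3 and 52.8 CPM in shE6AP and at 75.5, 70.6 and 74.5 CPM in wobble (log2 fold change -0.49, SE 0.040, edgeR adjusted p 1.61e-14). Both fell, as did NOTUM, which removes the lipid (log2 fold change -1.08, SE 0.123, edgeR adjusted p 2.82e-10). WIF1, a secreted Wnt-binding inhibitor, had 18, 14 and 17 reads in shE6AP and 0, 1 and 2 reads in wobble (edgeR adjusted p 8.76e-09). Of the R-spondins, which bind LGR receptors, RSPO3 had 21, 17 and 17 reads in shE6AP and 0, 3 and 2 reads in wobble (edgeR adjusted p 1.32e-08). WIF1 and RSPO3 rose, but with so few wobble reads the fold is not given. RSPO1, the more abundant, had 152, 119 and 130 reads in shE6AP and 118, 108 and 120 reads in wobble (log2 fold change 0.44, SE 0.109, edgeR adjusted p 6.32e-04). RSPO4 did not pass (log2 fold change 0.032, SE 0.329, edgeR adjusted p 0.943).

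A list of 50 genes described as induced by beta-catenin in some tissue, members excluded, had 47 rows and 42 tested genes. Of these 16 rose, 21 fell and 5 did not pass, with a median log2 fold change of -0.15. The share called was 88.1%, against 59.0% of all genes tested and 65.8% of those with at least 1 CPM, the level of 40 of the 47 rows; the list was chosen with earlier results known. The rises with the smallest p were TERT, the telomerase catalytic subunit, at 9.12, 7.77 and 9.18 CPM in shE6AP and 2.51, 2.49 and 2.62 CPM in wobble (log2 fold change 1.78, SE 0.110), CLDN1, a tight junction protein (0.44, SE 0.033), FOSL1, an AP-1 subunit (0.41, SE 0.036), and PLAUR, the urokinase receptor (0.46, SE 0.040). The falls were BMP4, a secreted growth factor, at 7.82, 7.77 and 7.67 CPM in shE6AP and 52.2, 54.2 and 52.6 CPM in wobble (log2 fold change -2.77, SE 0.058), CD44, a hyaluronan receptor (-1.54, SE 0.034), ID2, an inhibitor of helix-loop-helix factors (-1.51, SE 0.055), and ETS2, a transcription factor (-0.67, SE 0.035). Over these 8 genes the edgeR adjusted p ran from 4.02e-35 for BMP4 to 1.64e-13 for PLAUR. The classical targets CCND1 and MYC, picked after their values were seen, rose by 0.27 (SE 0.032) and 0.18 (SE 0.039) on the log2 scale. Some other targets on the list did not rise. SP5 did not pass (log2 fold change 0.081, SE 0.155, edgeR adjusted p 0.679). NOTUM and APCDD1, which are on this list as well, fell (log2 fold changes -1.08 and -0.81). Activity of beta-catenin itself was not tested.

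**Figure D5:**
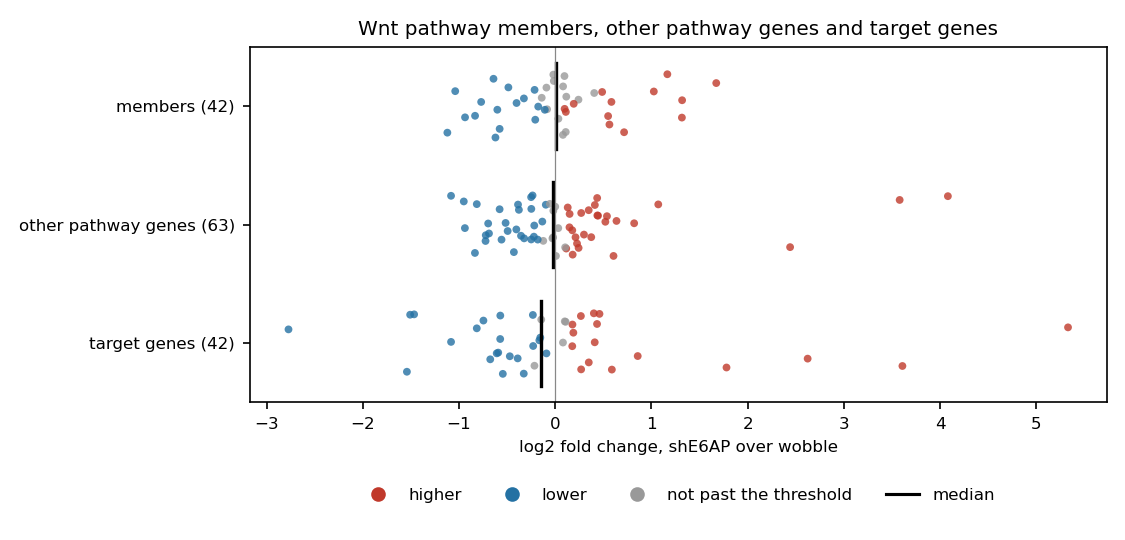
Horizontal axis: log2 fold change, shE6AP over wobble, of the tested members, other pathway genes and target genes. Points are genes, those that rose in red, those that fell in blue and the others in grey, with a vertical bar at the median (0.0099, -0.021 and -0.15). In each set points lie on both sides of 0; the values furthest right belong to genes with few wobble reads and depend on the prior count of the fit.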

How the data were processed

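TRIzol RNA of DU145 cells was turned into TruSeq RNA libraries, per the labels' protocols. Per the submitters' processing notes, TopHat2 2.0.13 with Bowtie2 mapped the reads to hg19 and HTSeq counted them; neither annotation nor strand setting is given in the sources used here. The deposited values are raw counts per gene. HTSeq's 2 summary rows (outside genes, 14.6% to 16.0%; ambiguous, 2.05% to 2.21% of reads), 1 nameless row (up to 4.59e-05%) and 1 row lacking values were dropped.

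Counts went into edgeR 4.0.16 under R 4.3.3: filterByExpr, TMM, quasi-likelihood F-test with only the group in the model, and Benjamini-Hochberg adjustment across the 19433 genes kept (threshold 0.05). SE is the size of the log2 fold change divided by √F; 95% intervals use the degrees of freedom of the test. The pipeline was first tested on simulated data. Chi-square per gene between libraries was 1.76 to 3.52 inside a group and 47.7 to 55.1 across groups. All 6 libraries were counted separately, but these values cannot show whether libraries of a group stem from different cultures.

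Members and lists were chosen with earlier results of these data known. The rule for full values took members past the threshold with at least 1 CPM in either group and a log2 fold change of 0.5 or more in size; other members are described by level, and some in full after their values were seen. From the other pathway and target lists it took the 4 smallest p each way. Missing symbols were sought among synonyms. A further marker list is not reported here.

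Alternatives were RLE, upper-quartile and library-total factors; DESeq2 1.42.0; limma 3.58.1 with voom; dropping the low-count filter or asking 1 CPM in 3 libraries; a replicate block; leaving out each library; and glmTreat against a fold of 1.2. Role sums under other scalings were added after seeing the data. The median over all genes shifted by at most 0.0283 (log2) between scalings. An exact two-sided permutation test of 3 against 3 libraries cannot go below p = 0.1, which UBE3A reached.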

Additional observations from a re-analysis of the deposited data

How the results depend on the processing

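Of the 29 members called, 18 kept their direction and call under every alternative run for them, 15 each except for WNT11, which had 14 because it was not tested with 1 CPM asked in 3 libraries. Testing against a fold of 1.2 with glmTreat left 18 of the 42 members tested, 9 of them lower, and 31 of the 63 other pathway genes tested. Of all 19433 genes tested it left 5637 (2553 higher, 3084 lower). The 11 members whose call was lost under some alternative were AXIN1, AXIN2, DKK1, FZD8, LGR4, LRP5, LRP6, RYK, TCF7L1, WNT10A and ZNRF3. Over the alternatives, adjusted p ran from 0.0192 to 1 for APC, 0.0225 to 1 for TCF7L2, 0.000466 to 1 for LGR4, 0.00268 to 1 for RYK, 0.0333 to 0.174 for FZD8, 0.0106 to 0.085 for WNT10A and 0.000968 to 0.0543 for AXIN2. Sign changed for members that did not pass: with upper-quartile scaling FZD2 was at 0.015 and FZD6 at 0.0095. Leaving out 1 library gave -0.068 to 0.056 for FZD2 (highest without wobble 1), -0.041 to 0.0028 for FZD6 (highest without wobble 3), -0.066 to 0.083 for RNF43 (lowest without wobble 2) and -0.073 to 0.30 for WNT8B (lowest without shE6AP 1). The receptor sum ratio was 1.014 with upper-quartile scaling, 1.001 with library totals and 0.985 to 1.002 with 1 library left out. The cause was not tested.

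With the replicate number as a block, 31 of 42 members and 11979 of 19433 genes passed, APC (adjusted p 0.0232) and TCF7L2 (adjusted p 0.0418) being added. Deviations of libraries sharing a number correlated at 0.0166 to 0.0438, and those of libraries with different numbers at -0.0325 to -0.00567. These correlations are weak, although each library correlated best with its own number. The labels give only a replicate number, and whether libraries were paired is not known. Members under 1 CPM rest on few reads: at 1 CPM the shallowest library holds 21.4 reads.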
